A study of Homo sapiens with 12 samples.

Results

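The drug-metabolizing enzymes were followed through ribosome profiling of HepG2 cells, in transcript abundance (Input), in ribosome-protected fragments (RPF) and in the ratio of RPF to Input (translation efficiency, TE). The genes were 110 protein-coding genes of 58721 genes in the deposited tables, chosen by symbol. They comprised 25 cytochromes P450 (CYP) of families 1 to 3, 12 of the CYP4 family and 19 of other families, 17 UDP-glucuronosyltransferases (UGT1A and UGT2), 11 cytosolic sulfotransferases (SULT1 and SULT2), 21 glutathione S-transferases (GST and MGST), and POR, EPHX1, NQO1, NAT1 and NAT2. CYP51A1, an enzyme of cholesterol synthesis, was left out. HepG2 is an established human liver cancer cell line, so all groups come from a single line. Cells were transfected either with an siRNA control (siControl) or to knock down the RNA-binding protein IGF2BP3 (siIGF2BP3). They were treated on day 2 with cycloheximide at 100 µg/mL for 4 min, which holds ribosomes in place on the mRNA. Each condition gave 3 Input and 3 RPF libraries, 12 in all, and the RPF fragments were 28 to 30 nt long. The labels do not say whether replicates came from separate cultures, so p-values measure only the spread between these libraries.

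Phase I enzymes of the liver oxidize, reduce or hydrolyze drugs, and phase II enzymes couple the products to glucuronic acid, sulfate, glutathione or acetate. Most CYP enzymes sit in the endoplasmic reticulum and take their electrons from POR, the NADPH-cytochrome P450 reductase. Hepatocytes are the main site of this system in the body, and many of its genes arose by tandem duplication, which leaves neighboring copies with long stretches of the same sequence.

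The libraries held between 11219750 and 31510601 counts. IGF2BP3, the targeted gene, was at 133, 129 and 127 CPM (counts scaled to 1000000 per library) in siControl Input, against 103, 97.9 and 106 CPM in siIGF2BP3 Input. In RPF it was at 74.6, 78.1 and 77.7 CPM in siControl, against 21.9, 28.0 and 25.2 CPM in siIGF2BP3, so its libraries did not overlap in either assay. Over all genes siControl RPF replicates 2 and 3 differed by about the sampling noise (mean chi-square 0.941, and 1.06 over protein-coding genes). The other siControl RPF pairs were at 2.80 and 2.09. Replicates 2 and 3 were counted as 1 sample in means and SDs, so those SDs leave out the spread between replicates 2 and 3. Over the enzymes alone all 3 pairs lay between 0.693 and 1.034. Replicate 1 of siIGF2BP3 RPF stood apart from replicates 2 and 3, with mean chi-square values of 12.1 and 14.9 over the enzymes against 1.08 between the others. Calls in RPF and TE are therefore also given without it. All 11 hepatocyte markers had Input counts, with a summed level between 59055 and 59702 CPM in siControl Input. Of 13 markers of other liver cells, 3 had no count in any Input library, and the list summed to between 909 and 922 CPM in siControl Input. KRT19, of the second list, was called lower in siIGF2BP3 Input (log2 fold change -0.24, adjusted p = 0.000791, edgeR).

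How alike the copies are bears on the values of genes that share sequence, since many deposited counts are fractions. Of the 110 genes, 33 shared over 50% of the 29 nt windows of their coding sequence with another gene of the tables, and 38 shared none. The 4 CYP4F genes of chromosome 19 that HepG2 transcribed are shown in their most alike window, at coding position 580, which no footprint of that length can assign to a single gene. The sequences are the hg38 coding strand, 5′ to 3′.
CYP4F3 (exon 6, chr19:15649214-15649242, plus strand): cacatcagcctcatgaccttggacagtct
CYP4F2 (exon 6, chr19:15890351-15890379, minus strand): cacatcagcctcatgaccttggacagtct
CYP4F11 (exon 5, chr19:15924800-15924828, minus strand): cacatcagcctcatgaccttggacagtct
CYP4F12 (exon 6, chr19:15682443-15682471, plus strand): cacatcagcctcatgaccttggacagtct
The window at coding position 216 is the least alike of the same genes in the transcript marked as canonical for each gene. Footprints of those transcripts can be told apart there. Other transcripts of these genes were not aligned, so footprints of other forms of CYP4F3 may not separate in this way. Capitals mark the letters that differ from CYP4F3.
CYP4F3 (exon 3, chr19:15645736-15645764, plus strand): aggtctcctatacacacaaagcctggcat
CYP4F2 (exon 3, chr19:15895605-15895633, minus strand): GggCAtGAGaGTTCTGACTCAGctggTGG
CYP4F11 (exon 2, chr19:15929556-15929584, minus strand): GggCAtGAAGACATTGACCCAGctggTGA
CYP4F12 (exon 3, chr19:15678278-15678306, plus strand): GggCTtGAAGAacTcGACCCAGAtgTcGG
CYP4F2, CYP4F11 and CYP4F12 differed from CYP4F3 at 21, 22 and 20 of the 29 letters there. Over the coding sequence of the canonical transcripts CYP4F3 was 90.6% identical to CYP4F2, 85.4% to CYP4F11 and 83.3% to CYP4F12. The share of windows found in some other gene was 42.1% for CYP4F3, 38.2% for CYP4F2, 20.0% for CYP4F12 and 13.3% for CYP4F11.

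The alpha class GST genes of chromosome 6 were closer still. GSTA1 was 96.7% identical to GSTA2, 92.5% to GSTA3 and 93.5% to GSTA5 over 666 coding nt. In the following window, at coding position 431, the 4 genes cannot be told apart.
GSTA1 (exon 6, chr6:52792943-52792971, minus strand): gacaagactaccttgttggcaacaagctg
GSTA2 (exon 6, chr6:52751664-52751692, minus strand): gacaagactaccttgttggcaacaagctg
GSTA3 (exon 6, chr6:52897912-52897940, minus strand): gacaagactaccttgttggcaacaagctg
GSTA5 (exon 5, chr6:52832946-52832974, minus strand): gacaagactaccttgttggcaacaagctg
Even the least alike window, at coding position 321, differs in few letters, marked in capitals against GSTA1.
GSTA1 (exon 5, chr6:52794190-52794218, minus strand): ccttctgcccgtatgtccacctgaggaaa
GSTA2 (exon 5, chr6:52752919-52752947, minus strand): TcttctgcccTtTAgtcAacctgaggaaC
GSTA3 (exon 5, chr6:52899999-52900027, minus strand): TcttctgcccTtatgtcGacctgaggaaa
GSTA5 (exon 4, chr6:52834206-52834234, minus strand): TcttctgcTcAtatgtcAaccAgaggaaa
The UGT1A genes of chromosome 2 join alternative first exons to the same later exons. The 7 UGT1A genes analysed here all held the next window, from exon 2, and 708 of 1571 windows (45.1%) were common to them.
UGT1A (chr2:233767034-233767062, plus strand): gaatttgaagcctacattaatgcttctgg
Among the UGT2B genes of chromosome 4, the least alike window near coding position 339 is shown because footprints, but almost no Input reads, were counted for UGT2B11 and UGT2B28. Capitals mark the letters that differ from UGT2B10.
UGT2B10 (chr4:68816355-68816383, plus strand): agaaatcctgtgggcaattaatgacataa
UGT2B11 (chr4:69214356-69214384, minus strand): agaaatcctgtgggAaTtATatgacataT
UGT2B28 (chr4:69280839-69280867, plus strand): agaaatcctgtgggAaTttCatgacataT
UGT2B7 (chr4:69096859-69096887, plus strand): GgaaatcAtgtCAATaTttGGtgacataa
Enzymes with no shared window included CYP2S1, CYP2W1, CYP7A1, GSTA4, SULT2A1 and NQO1.

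HepG2 expressed part of the system. In siControl Input 52 of the 110 genes reached a mean of 1 CPM, in siControl RPF 55 did, and 35 reached 5 CPM in both. The enzymes took between 0.251% and 0.262% of the counts of each Input library and between 0.384% and 0.414% of each RPF library. Those 2 ranges do not overlap, but Input and RPF libraries were prepared differently and are compared here only against other genes.

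The CYP families 1 to 3, which hold most drug-oxidizing P450s of the adult liver, were low. Named for their place in liver drug metabolism rather than by a rule, CYP2A6 had no count in any library, and CYP2B6, CYP2C8, CYP2C19, CYP2E1 and CYP1A2 stayed under 0.4 CPM in every library. CYP3A4, the main drug-oxidizing P450 of the adult liver, was listed at 0 in 5 of 6 Input libraries. A count of 0 allows up to 3 counts, which is between 0.0952 and 0.267 CPM in these libraries, counting error only. In all, 10 of the 110 genes had no count in any of the 12 libraries, among them 3 of CYP families 1 to 3 and 4 of the CYP4 family. The members of families 1 to 3 with the highest length-scaled value (counts per exon kilobase, scaled to 1000000 per library) in siControl Input were CYP2S1 at 24.98 ± 1.26, CYP2W1 at 13.9 ± 2.08 and CYP2J2 at 12.3 ± 2.40 (SD, n = 3). CYP2S1 and CYP2W1 are P450s found largely outside the adult liver, and CYP2J2 is an epoxygenase of arachidonic acid. The ranges of CYP2W1 and CYP2J2 overlapped within 1 SD, while CYP2S1 lay above both.

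Among the other P450s, CYP27A1, the sterol 27-hydroxylase of bile acid synthesis, stood at 118 ± 2.25 on the same scale in siControl Input, ahead of CYP20A1 at 23.4 ± 1.82 and CYP19A1, aromatase, at 11.5 ± 0.899 (SD, n = 3). In the CYP4 family, whose members hydroxylate fatty acids and eicosanoids at their end, CYP4F3 was at 20.9 ± 1.30, CYP4F12 at 12.7 ± 1.125 and CYP4F11 at 9.62 ± 0.887. CYP4F2 followed at 7.38 ± 1.31 (SD, n = 3), so that CYP4F11 and CYP4F2 differed by about the sum of their SDs.

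NQO1, the quinone reductase, reached 1011 ± 32.3 in siControl Input, the highest Input value of the 110 genes on this scale. POR was at 94.1 ± 6.65 and EPHX1, the microsomal epoxide hydrolase, at 58.7 ± 1.21 (SD, n = 3). Of the conjugating enzymes SULT2A1, which sulfates steroids and bile acids, was at 327 ± 8.02 and GSTO1, the omega class transferase, at 264 ± 20.1. UGT2B10, which glucuronidates amine drugs, was at 102 ± 5.00 and MGST2, a microsomal transferase, at 99.8 ± 6.003, and these last values did not differ beyond their spread. SULT1A1 and SULT1A4 lay together at 77.5 ± 1.73 and 76.7 ± 3.05. SULT1A3 and SULT1A4 have identical coding sequence, so their counts cannot be read apart. GSTP1, the pi class transferase, was at or under 0.08 CPM in every Input library and had no count in RPF.

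**Figure D1:**
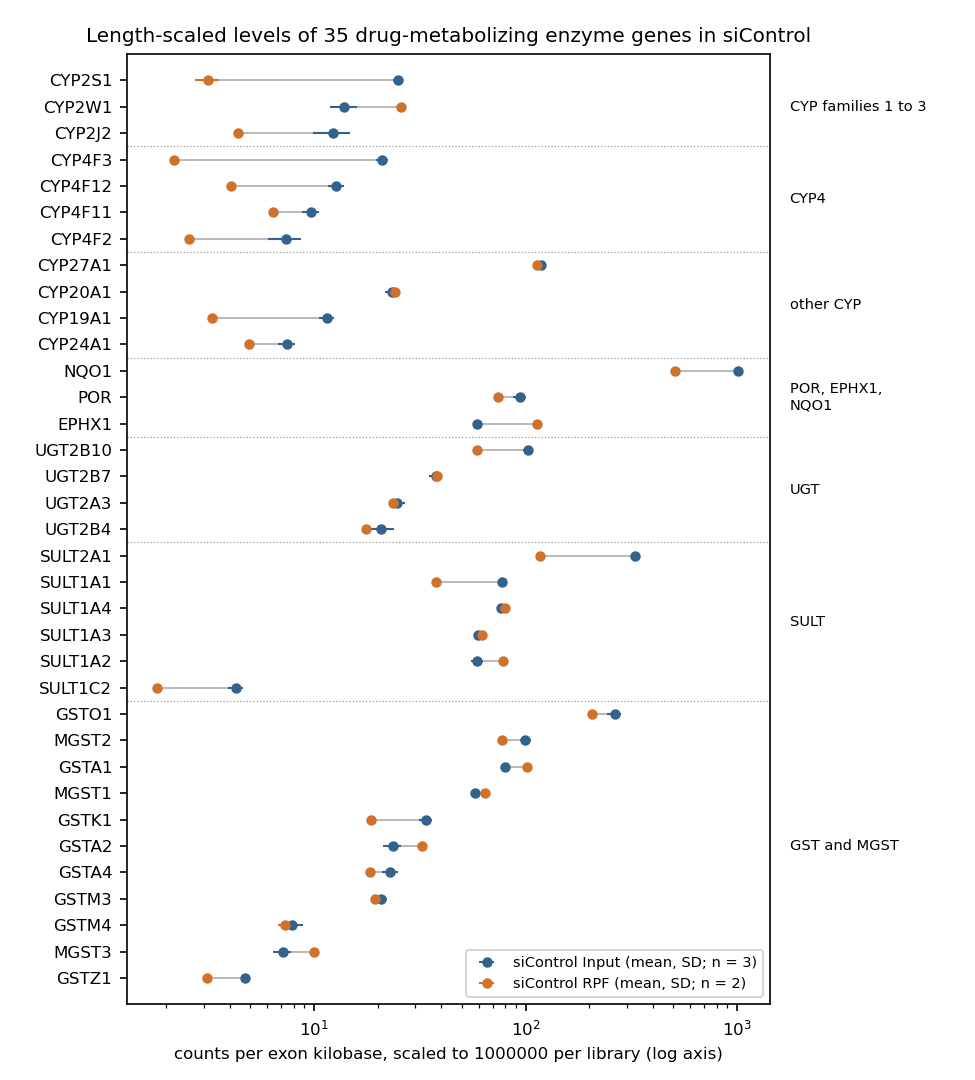
Mean length-scaled value in siControl Input (blue, n = 3) and siControl RPF (orange, n = 2 after counting replicates 2 and 3 as 1 sample) for the 35 enzyme genes with at least 5 CPM in both, on a log axis, with SD bars, by enzyme group. NQO1 lies highest in both assays. The CYP4F genes and CYP2S1 have their RPF point to the left of their Input point, but so do POR, UGT2B10, MGST2, GSTK1 and CYP2J2, among others. EPHX1 is a gene with its RPF point to the right. Positions on this length-scaled axis are not the RPF/Input ratios of CPM means given in the text.

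The RPF/Input ratio of CPM means, with no test, placed the enzymes against 9361 protein-coding genes of at least 5 CPM in both siControl assays, whose median ratio was 0.933. The median over the 35 enzymes was 1.85, and 28 of the 35 lay above the median gene. All 11 GST and MGST genes did, with a median of 2.20, and so did all 4 UGT genes, with a median of 2.13. The CYP4 genes had a median of 0.780. The highest ratios belonged to EPHX1 at 4.56, CYP2W1 at 4.37, MGST3 at 3.30 and GSTA2 at 3.24. The lowest were those of CYP4F3 at 0.243, CYP2S1 at 0.297, CYP19A1 at 0.677 and CYP4F12 at 0.748. Among the protein-coding genes EPHX1 and CYP2W1 stood at percentiles 97.4 and 97.0, and CYP4F3 at percentile 7.73.

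Footprints were also counted where the Input libraries held almost nothing. In siControl, 13 enzymes had a mean of at least 0.5 CPM in RPF and less in Input. Of these, 11 shared coding windows with another gene, and 10 had fractional counts in all 6 RPF libraries, as splitting a read between genes gives. GSTA5 was at 7.64, 6.95 and 7.57 CPM in siControl RPF, against 0 in all 3 siControl Input libraries. GSTA3 was at 3.82, 3.72 and 3.88 CPM in siControl RPF against a single Input library above 0, at 0.0397 CPM. UGT2B11 had a mean of 10.9 CPM in siControl RPF against 0.331 CPM in Input, and UGT2B28 12.9 against 0.470 CPM. Their values are therefore uncertain, and so are those of GSTA1, GSTA2 and UGT2B10, with which they share windows (59.3%, 50.8% and 64.8% of windows shared with some gene). Summed over GSTA1, GSTA2, GSTA3 and GSTA5, siControl Input held 31.6 ± 1.07 CPM (SD, n = 3), and the siControl RPF libraries held 108, 105 and 109 CPM. The splitting of reads among these 4 genes cannot change these sums. Exceptions with no shared window were CYP7A1 and CYP27C1.

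**Figure D2:**
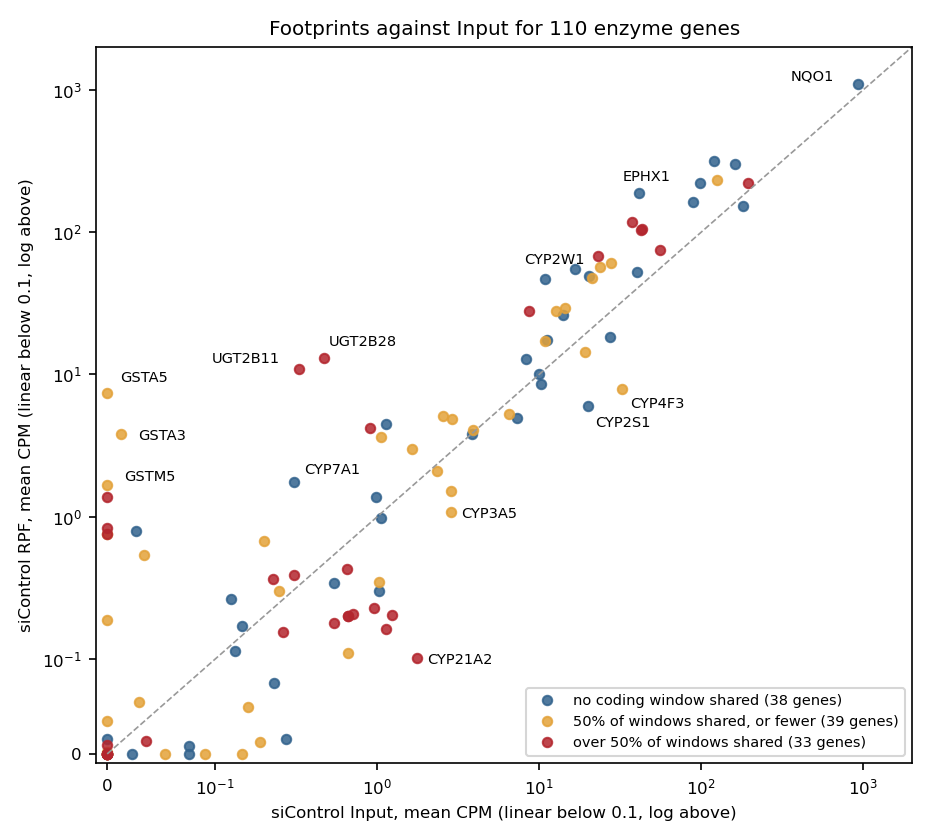
Mean CPM in siControl RPF against siControl Input for the 110 enzyme genes, colored by the share of their 29 nt coding windows found in another gene; axes are linear below 0.1 and logarithmic above, and the dashed line marks equal values. Points along the left edge, GSTA5 and GSTM5 among them, had footprints with no Input count, while CYP4F3 and CYP2S1 lie below the line.

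Input was compared between the conditions to see which enzyme transcripts knockdown altered. Of 57 enzymes tested, 2 rose and 1 fell at an adjusted p under 0.05 in edgeR's quasi-likelihood test. That is 5.26%, against 5.96% over all 14759 genes (4.05% up and 1.90% down), so the enzymes were called about as often as any gene. Groups did not overlap for 15 of the 57 enzymes, 10 above and 5 below siControl, against 25% of all genes (19.2% above and 5.73% below). Their median log2 fold change (siIGF2BP3 over siControl, with its SE where one is given) was -0.02, against 0.00 over all genes. The changes were in CYP4F3 and CYP3A5, which rose, and SULT2A1, which fell. A further 7 enzymes had an unadjusted p under 0.05 (10 of 57, against 20.4% of all genes).

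CYP4F3, which converts leukotriene B4 and related lipids to their hydroxylated forms (chr19:15640897-15662825), was at 31.2, 31.3 and 34.7 CPM in siControl Input, against 36.7, 44.3 and 45.4 CPM in siIGF2BP3 Input. All siIGF2BP3 libraries lay above all siControl libraries. The log2 fold change was 0.33 ± 0.08, with an adjusted p of 0.00999 in edgeR. The call was lost without siControl Input replicate 2 or without siIGF2BP3 Input replicate 2 or 3, at adjusted p between 0.0536 and 0.0706.

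The neighboring CYP4F genes did not pass the threshold. CYP4F12 was at 20.9, 18.7 and 17.7 CPM in siControl Input, against 22.995, 26.3 and 22.4 CPM in siIGF2BP3 Input, without overlap (log2 fold change 0.28 ± 0.09, adjusted p = 0.0755, edgeR). It was called without siControl Input replicate 1. CYP4F11 was at 11.7, 9.80 and 11.1 CPM against 12.7, 13.1 and 13.3 CPM, also without overlap (0.22 ± 0.11, adjusted p = 0.273). CYP4F2, which hydroxylates vitamin K and arachidonic acid, overlapped between the groups (0.06 ± 0.15, adjusted p = 0.864) and changed sign, to -0.09, without siControl Input replicate 1. All 5 CYP4 genes tested had a positive log2 fold change, with a median of 0.22, and in 4 of them every siIGF2BP3 library lay above every siControl library, which held for 19.2% of all genes tested. The summed value of the CYP4 family went from 76.2, 74.7 and 78.3 CPM in siControl Input to 89.3, 98.3 and 97.4 CPM in siIGF2BP3 Input.

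CYP3A5, a drug-oxidizing P450 near CYP3A4 on chromosome 7, was at 2.48, 3.18 and 2.86 CPM in siControl Input, against 4.63, 4.88 and 4.23 CPM in siIGF2BP3 Input. The groups did not overlap, and the log2 fold change was 0.64 ± 0.19, with an adjusted p of 0.0406 in edgeR. This call was lost when any single Input library was left out, at adjusted p between 0.0554 and 0.133, and with no filter on low counts (0.0538). DESeq2 gave it no adjusted p. It rested on 277 counts over the 6 Input libraries. CYP3A5 shared 17.4% of its windows with other genes, mainly CYP3A4 and CYP3A7.

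SULT2A1 (chr19:47870466-47886397) was at 180, 179 and 187 CPM in siControl Input, against 170, 167 and 166 CPM in siIGF2BP3 Input. Every siIGF2BP3 library was lower, with a log2 fold change of -0.17 ± 0.05 and an adjusted p of 0.0246 in edgeR. It was no longer called without siControl Input replicate 3 or without siIGF2BP3 Input replicate 2 or 3. Hepatocyte markers fell beside it in Input, where 7 of 11 were called lower (63.6%, against 1.90% of all genes), with a list median of -0.22. Their summed Input level went from between 59055 and 59702 CPM to between 54121 and 54230 CPM. In RPF and in TE 0 of the 11 were called, with list medians of -0.06 and 0.11. Their part in the SULT2A1 result was not tested, and in bulk libraries fewer cells of a kind and less RNA per cell cannot be told apart. CYP27A1 was at 96.2, 101 and 98.3 CPM against 90.2, 92.5 and 89.6 CPM, again without overlap (-0.16 ± 0.05, adjusted p = 0.0553).

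The remaining Input values were small or uncertain. POR, EPHX1 and NQO1 changed by log2 values of 0.06 ± 0.05, -0.10 ± 0.07 and -0.01 ± 0.04 (SE, adjusted p = 0.547, 0.475 and 0.92, edgeR). None of the 8 UGT genes or 14 GST and MGST genes tested was called, with ranges from -0.16 to 0.15 and from -0.21 to 0.43. Of the 3 UGT and GST genes with most transcript, UGT2B10, GSTO1 and MGST2, log2 fold changes were -0.08, -0.06 and -0.06. Genes whose reads cannot be assigned were read as sums where possible. No sum is given for the UGT1A genes, because their common exons also belong to genes of the locus not analysed here. All coding windows of SULT1A3 and SULT1A4 are also held by the overlapping genes SLX1A-SULT1A3 and SLX1B-SULT1A4. These 4 genes together held 197, 184 and 187 CPM in siControl Input against 185, 192 and 195 CPM in siIGF2BP3 Input, with overlap. CYP2D6, with 57.5% of its windows shared, ranged from 0.402 to 1.15 CPM over the Input libraries, and the 3 GSTT genes in the tables all had means under 1 CPM in both siControl assays. GSTM1, with 55.3% shared, had 0.899 ± 0.259 CPM in siControl Input and 4.19 ± 0.283 CPM in siControl RPF (SD, n = 3 and 2). The extremes of the 57 genes, chosen after their values were seen, were NAT1 at -0.65 ± 0.25 and SULT1E1 at 0.68 ± 0.31, neither of which passed (adjusted p = 0.125 and 0.218, edgeR).

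**Figure D3:**
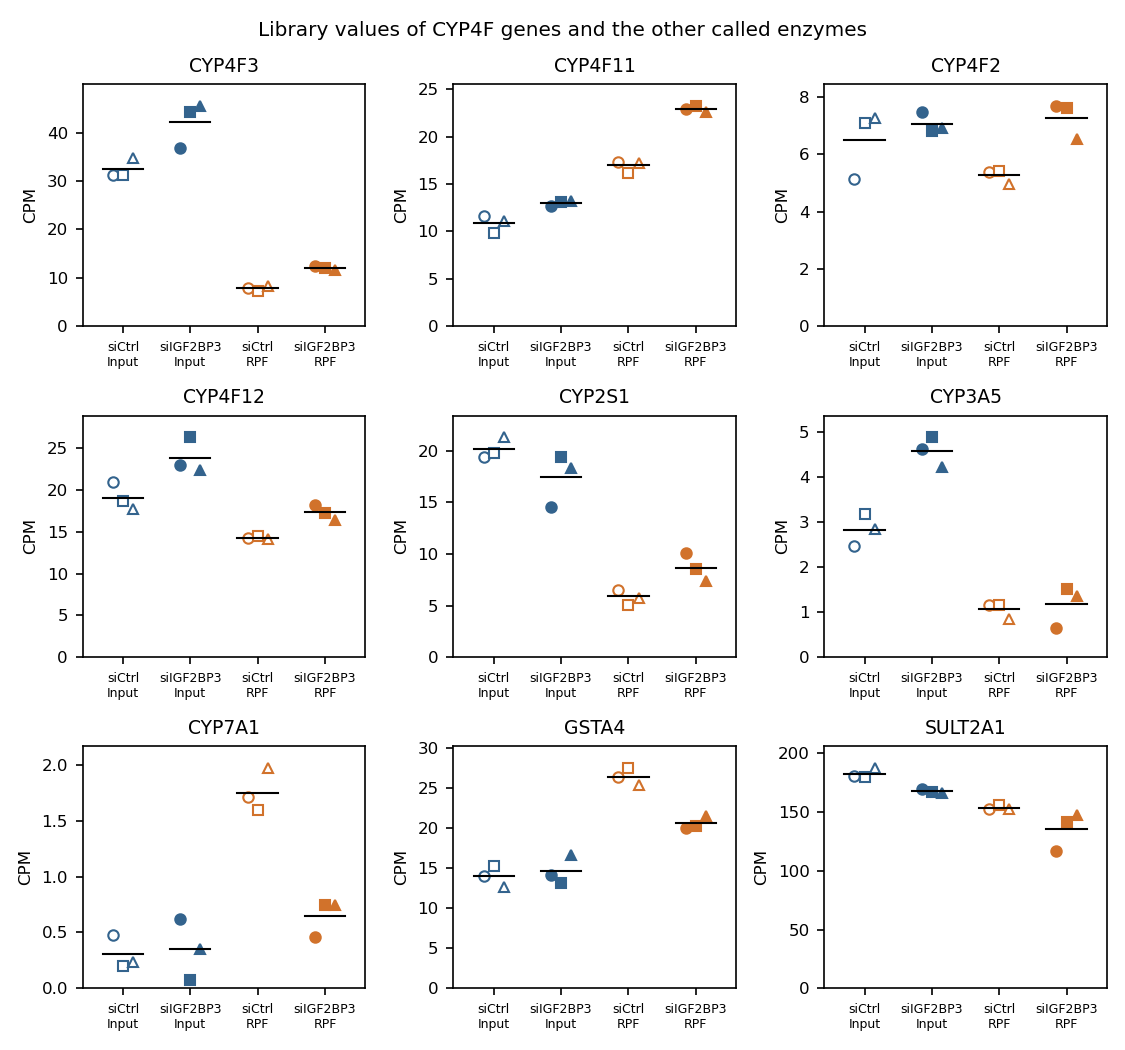
CPM of each library for the 4 CYP4F genes, CYP2S1, CYP3A5, CYP7A1, GSTA4 and SULT2A1 in the 4 groups (circle, square and triangle are replicates 1, 2 and 3; open symbols siControl, filled symbols siIGF2BP3; bars are means, with siControl RPF replicates 2 and 3 counted as 1 sample). The siIGF2BP3 RPF libraries of all 4 CYP4F genes lie above their siControl RPF libraries, and those of CYP7A1 and GSTA4 lie below.

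The RPF libraries were compared in the same way to see how ribosome occupancy of these mRNAs changed. Of 63 enzymes tested, 2 rose (CYP4F3 and CYP4F11) and 2 fell (CYP7A1 and GSTA4), 6.35% against 1.66% over all 20192 genes (1.02% up and 0.649% down). Groups did not overlap for 17 of the 63, 9 above and 8 below siControl, against 25.7% of all genes (10.9% above and 14.8% below). The median log2 fold change of the 63 enzymes was 0.00, against 0.01 over all genes. Each of the 4 calls was lost when siControl RPF replicates 2 and 3 were summed, and when any single RPF library was left out other than siIGF2BP3 RPF replicate 1. Those settings called between 11 and 70 genes in the whole table.

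In RPF all 4 CYP4F genes had higher values after knockdown, and CYP4F3 and CYP4F11 passed the test. CYP4F3 was at 7.99, 7.26 and 8.32 CPM in siControl RPF, against 12.5, 12.02 and 11.6 CPM in siIGF2BP3 RPF (log2 fold change 0.62 ± 0.08 SE, adjusted p = 0.0174, edgeR). CYP4F11, which hydroxylates fatty acids and vitamin K, was at 17.4, 16.2 and 17.3 CPM against 22.9, 23.2 and 22.6 CPM (0.45 ± 0.06, adjusted p = 0.0167). The groups did not overlap for either gene. CYP4F2 was at 5.39, 5.42 and 4.97 CPM against 7.67, 7.62 and 6.55 CPM (0.47 ± 0.10, adjusted p = 0.0668). CYP4F12 was at 14.2, 14.5 and 14.2 CPM against 18.2, 17.3 and 16.5 CPM (0.29 ± 0.07, adjusted p = 0.103). In all 4 genes the lowest siIGF2BP3 library lay above the highest siControl library, which 10.9% of all genes tested showed. The median of the 6 CYP4 genes tested was 0.43 and none was negative. All 4 genes hold the window printed first, and the part of shared reads in their values was not tested. Summed over CYP4F2, CYP4F3, CYP4F11 and CYP4F12, the siControl RPF libraries held 45.0, 43.4 and 44.7 CPM and the siIGF2BP3 RPF libraries 61.3, 60.1 and 57.2 CPM. The same sum in Input was 68.9 ± 1.90 CPM in siControl and 86.1 ± 5.54 CPM in siIGF2BP3 (SD, n = 3). CYP4F8 and CYP4F24P also hold some windows of these genes and are not in the sums, so reads split with them can still change the sums.

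CYP7A1, the rate-limiting enzyme of bile acid synthesis, was at 1.71, 1.59 and 1.97 CPM in siControl RPF, against 0.460, 0.743 and 0.746 CPM in siIGF2BP3 RPF. Every siIGF2BP3 library was below every siControl library, and the log2 fold change of -1.34 ± 0.17, with an adjusted p of 0.0170 in edgeR, was the furthest from 0 of the 63 enzymes. Its Input values lay between 0.0775 and 0.624 CPM in all 6 libraries, under the level needed for the RNA or TE test, so a change in transcript cannot be told apart from a change in occupancy. DESeq2 gave no adjusted p for it.

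GSTA4, the alpha class transferase that conjugates 4-hydroxynonenal, a product of lipid peroxidation, was at 26.3, 27.4 and 25.3 CPM in siControl RPF. In siIGF2BP3 RPF it was at 19.9, 20.2 and 21.5 CPM, lower in every library (log2 fold change -0.34 ± 0.06, adjusted p = 0.0390, edgeR). With the replicate number as a block the adjusted p was 0.0820 and the call was lost. GSTA4 transcript overlapped between the groups, at 14.1, 15.2 and 12.7 CPM in siControl Input and 14.2, 13.2 and 16.6 CPM in siIGF2BP3 Input (0.01 ± 0.11, adjusted p = 0.968). Unlike GSTA1, GSTA2, GSTA3 and GSTA5, it shared no coding window with any other gene of the tables, though its counts were fractional in 3 of the 6 RPF libraries.

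Without siIGF2BP3 RPF replicate 1, 15 of 66 enzymes were called in RPF (22.7%, against 16.5% of all genes), 11 up and 4 down (7.97% and 8.57% of all genes), and all 4 genes named above were among them. CYP2W1, CYP2S1, CYP4F2 and CYP4F12 joined on the rising side, at log2 fold changes of 0.28, 0.43, 0.42 and 0.24. So did GSTA1, GSTA2 and GSTA5, at 0.21, 0.31 and 0.26, and UGT2B4 and UGT2B10, at 0.22 and 0.11. CYP27A1 and MGST2 joined on the falling side, at -0.09 and -0.13. The GSTA and UGT2B genes share windows among themselves, so their rises are not separate measurements. Summed over GSTA1, GSTA2, GSTA3 and GSTA5, the RPF level was 108, 105 and 109 CPM in siControl and 101, 124 and 130 CPM in siIGF2BP3, with replicate 1 on the other side of the siControl libraries from replicates 2 and 3.

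In that library single enzymes lay apart in either direction. CYP2W1 was at 47.9, 47.5 and 45.4 CPM in siControl RPF, against 84.4, 58.0 and 56.0 CPM in siIGF2BP3 RPF, replicate 1 being the highest. SULT2A1 was at 152, 156 and 152 CPM against 117, 142 and 148 CPM, replicate 1 being the lowest. CYP27A1 was at 223, 218 and 225 CPM against 241, 210 and 207 CPM, so that its log2 fold change over all libraries was 0.00 ± 0.08 (SE, adjusted p = 1, edgeR). For each of these 3 enzymes the siControl libraries lay closer together than the siIGF2BP3 libraries. NQO1 ran from 1080 to 1098 CPM in siControl RPF and was at 1004, 1119 and 1146 CPM in siIGF2BP3 RPF.

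The ratio of RPF to Input was then tested for the interaction of assay and knockdown. Of 50 enzymes tested, 1 was called, 2.00% against 2.17% over 13395 genes (0.814% up and 1.36% down), and 6 had an unadjusted p under 0.05, against 15.9% of all genes. The call was CYP2S1, a P450 that oxidizes retinoids and eicosanoids (chr19:41193049-41207539). In Input it was at 19.3, 19.8 and 21.3 CPM in siControl, against 14.5, 19.4 and 18.3 CPM in siIGF2BP3, overlapping. In RPF it was at 6.51, 5.11 and 5.76 CPM against 10.1, 8.59 and 7.34 CPM, with every siIGF2BP3 library higher. The log2 fold change of TE was 0.81 ± 0.18 (SE, adjusted p = 0.0225, edgeR), from -0.25 ± 0.10 in RNA and 0.57 ± 0.15 in RPF, neither of which was called (adjusted p = 0.150 and 0.108). The RNA value was -0.14 without siIGF2BP3 Input replicate 1, and DESeq2 called the RPF value (adjusted p = 0.0369). CYP2S1 had the second lowest RPF/Input ratio of the 35 enzymes in siControl, 0.297, and 0.499 in siIGF2BP3. Adjusted p rose above 0.05 on summing siControl RPF replicates 2 and 3, and on leaving out siControl Input replicate 3, siControl RPF replicate 2 or 3, siIGF2BP3 Input replicate 1 or siIGF2BP3 RPF replicate 2, to between 0.0517 and 0.0781. DESeq2 gave it no adjusted p.

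No other enzyme was called in TE. GSTA4 was at -0.35 ± 0.13 (SE, adjusted p = 0.173, edgeR) and CYP2W1 at 0.38 ± 0.25 (adjusted p = 0.501). The TE values of CYP4F3, CYP4F11, CYP4F2 and CYP4F12 were 0.29 ± 0.13, 0.24 ± 0.12, 0.41 ± 0.19 and 0.01 ± 0.12, none passing (adjusted p between 0.275 and 0.978). Of all 50 enzymes, 34 had a positive and 16 a negative TE value, with a median of 0.08 against 0.01 over all genes. Without siIGF2BP3 RPF replicate 1, CYP2S1 and GSTM3 were called, 2 of 50 enzymes against 10% of all genes, and the TE value of CYP2W1 was 0.16 and that of CYP4F12 -0.04.

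**Figure D4:**
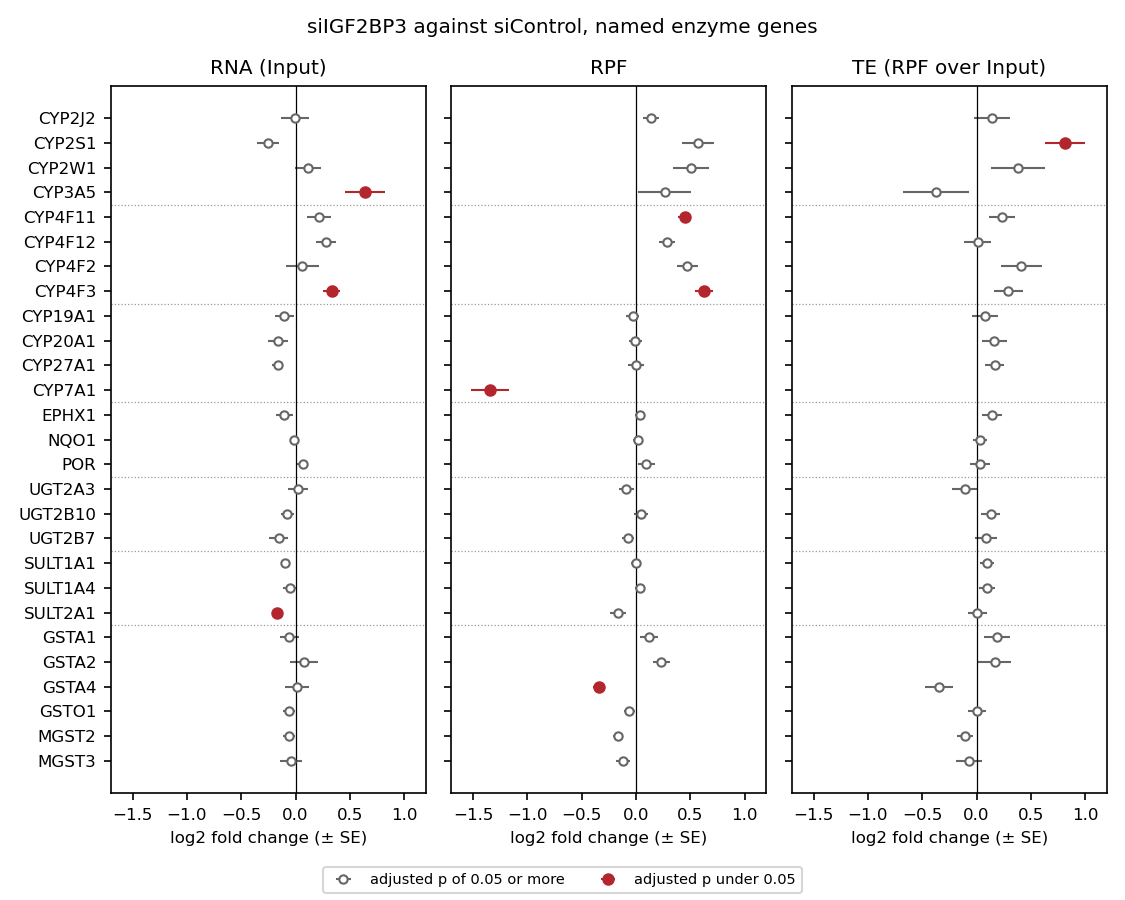
Log2 fold change of siIGF2BP3 over siControl in RNA, RPF and TE with SE bars for the 27 named enzymes, ordered by enzyme group; filled red points had an adjusted p under 0.05 in edgeR. CYP4F genes sit right of 0 in RPF, CYP7A1 far left, and CYP7A1 has no point in RNA or TE because it was not tested there.

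The genes around these enzymes were read from lists of the same system. Of 18 drug transporters tested in RNA, 5 rose and none fell (27.8%, against 5.96% of all genes), with a list median of 0.08. They were the efflux pumps ABCC3 (log2 fold change 0.38 ± 0.05), ABCC6 (0.30 ± 0.09), ABCC2 (0.28 ± 0.04) and ABCC1 (0.26 ± 0.06), and SLC51A (0.37 ± 0.07), a subunit of the organic solute transporter of bile acids. ABCC2 was at a mean of 643 ± 12.5 CPM in siControl Input and 810 ± 13.4 CPM in siIGF2BP3 Input (SD, n = 3). None of these 5 was called in RPF, and SLC51A alone of the list was called in TE (-0.52 ± 0.10, adjusted p = 0.00628, edgeR). Of 31 other phase I and II enzymes tested in RPF, FMO5, a flavin monooxygenase, and ADH4, an alcohol dehydrogenase, were called lower at -0.41 ± 0.06 and -0.53 ± 0.07 (log2, SE), 6.45% against 1.66% of all genes. Both were called lower again among 29 tested in TE, at -0.43 ± 0.09 and -0.40 ± 0.09, 6.90% against 2.17% of all genes, and none of 29 was called in RNA. Calls of genes on the lists were not followed under the alternatives given for the enzymes. Summing siControl RPF replicates 2 and 3 took the calls over all genes from 336 to 14 in RPF and from 291 to 143 in TE.

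Of 19 genes for electron donors and heme supply, only BLVRA, which reduces biliverdin, was called, in RNA (-0.21 ± 0.05), 5.26% of the list against 5.96% of all genes. Of the transcriptional regulators of drug metabolism, 21 were tested in RPF and 20 in TE, and edgeR called 0 in either, with 2 at an unadjusted p under 0.05 in each. Of 17 genes that make the cosubstrates of conjugation, only MAT2A, which makes S-adenosylmethionine, was called, in TE (-0.34 ± 0.09, adjusted p = 0.0475, edgeR), 5.88% of the list against 2.17% of all genes.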

How the data were processed

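Ribosome profiling gave 12 libraries of HepG2 cells, 3 for each of siControl and siIGF2BP3 in Input and RPF, grouped by their labels. Per the labels and methods, the authors used Cutadapt for trimming, STAR for alignment to hg38 and featureCounts for counting. Their versions, and how featureCounts treated strand or reads that fit several genes, are not given in the sources used here, nor is the preparation of the Input libraries. Each deposited table lists estimated counts by gene, many of them fractions and none scaled to depth; they were rounded to whole numbers for testing. No molecular identifiers are described, so limits from a count of 0 cover counting error only.

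Names came from GENCODE release 44, which matched 58207 of 58721 identifiers. Coordinates of genes are those of the deposited files. Windows, identities and shares of windows came from hg38 and the coding sequence of the canonical GENCODE transcript of each enzyme, so they hold for that transcript. RNA (6 Input libraries), RPF (6 RPF libraries) and TE (interaction, 12 libraries) were tested two-sided with edgeR 4.0.16 in R 4.3.3 (filterByExpr, TMM, quasi-likelihood), with Benjamini-Hochberg adjustment over all genes tested and a threshold of 0.05. Scripts were tested on simulated data. Fold changes use TMM factors and CPM does not. The methods name DESeq2 for TE; DESeq2 1.42.0 was an alternative here, beside RLE factors, other filters, protein-coding genes only, a replicate block, summing of the near-identical libraries and leaving out each library.

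Deviations from group means of same-numbered RPF libraries correlated at 0.377, 0.286 and 0.111, which was read as possible pairing by number. Values for pairs of unlike number are not given, so pairing is not shown by these correlations. In Input the values were 0.00900, -0.0450 and -0.0281, and no pairing was read there. The main tests of RNA, RPF and TE left the replicate number out, so their p-values ignore any pairing. It entered only in the replicate block, under which GSTA4 in RPF had an adjusted p of 0.0820 (edgeR). Members, lists and tests were chosen with earlier results of these data known. Named genes are enzymes called in any comparison, the 3 highest in Input of each enzyme group, the 4 highest and 4 lowest RPF/Input ratios, the 3 largest changes per comparison at 5 CPM or more, called genes of the lists, and families with shared reads; the RNA result of the list of transcriptional regulators is not reported here.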

Additional observations from a re-analysis of the deposited data

Results flagged for a closer look

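The change after knockdown differed between Input and RPF, by the interaction test of TE in edgeR, for 1 of the enzymes and 4 genes of the surrounding lists. The enzyme was CYP2S1, at 0.81 ± 0.18 on the log2 scale (SE, adjusted p = 0.0225), with -0.25 in RNA and 0.57 in RPF. SLC51A stood at -0.52 (adjusted p = 0.00628), with 0.37 in RNA and -0.16 in RPF. FMO5 stood at -0.43 (adjusted p = 0.00939), with 0.03 and -0.41 in the same order. ADH4 stood at -0.40 (adjusted p = 0.0289), with -0.12 and -0.53. MAT2A stood at -0.34 (adjusted p = 0.0475), with 0.13 and -0.23. These 4 list genes were not followed under the alternatives.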

How the results depend on the processing

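In RNA, leaving out single libraries called between 0 and 4 enzymes in place of 3, with no call without siIGF2BP3 Input replicate 2 or replicate 3. In RPF, leaving out single libraries called between 0 and 15 in place of 4, and summing siControl RPF replicates 2 and 3 called 0. In TE, leaving out single libraries called between 0 and 2 in place of 1, the summed libraries called 0 and DESeq2 0, since it gave CYP2S1 no adjusted p (unadjusted counts in edgeR were 10, 13 and 6 enzymes). Under the replicate block RNA had 3 calls, RPF 3 and TE 1, and GSTA4 in RPF was the only call it changed. No other alternative moved a count by over 1.5 times. Of 429 values of named enzymes under the alternatives, 364 kept their direction and side of the threshold, 44 lost and 7 gained a call. The other 14 changed sign, none of a gene called in that comparison. Leaving out single libraries moved CYP4F2 in RNA between -0.0864 and 0.147, GSTA4 in RNA between -0.0827 and 0.0854, CYP4F12 in TE between -0.0477 and 0.0911 and SULT2A1 in TE between -0.0521 and 0.0867 (log2). With the replicate block SULT2A1 in TE was at -9.72e-05. The cause was not tested. Low counts limit CYP3A5 and CYP7A1, among others.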
